A study of Homo sapiens with 18 samples.

Results

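The contrast described here asks whether overexpression of S100A9 changes what the small molecule Adavivint does to gene expression in THP-1 cells, and it uses 12 of the 18 RNA sequencing libraries of the series. THP-1 is an established human monocytic line from acute myeloid leukemia. The 12 libraries were chosen as all THP-1 samples and form 4 groups of 3. The first carried a lentiviral S100A9 overexpression vector and received Adavivint at 1 µM for 36 h (treated overexpressing cells), and the second carried the same vector without the drug (untreated overexpressing cells). The third carried an empty vector and received the same dose for the same time (treated empty vector cells), and the fourth carried the empty vector without the drug (untreated empty vector cells). All 4 groups share lentiviral transduction and puromycin at 2 µg/mL, begun 48 h after transduction and kept for at least 24 h. The labels name no vehicle for the untreated cells, do not say whether the transduced lines were pools or clones, and do not say how the replicates were kept apart. The p-values therefore reflect only how much these libraries vary, which may be technical. The 6 U937 libraries of the series are another cell line and were not used.

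S100A9 is a calcium-binding protein of neutrophils and monocytes that pairs with S100A8 to form calprotectin, which is released from cells and is known to act through receptors such as TLR4 and AGER. Adavivint, also known as lorecivivint, was developed as an inhibitor of the Wnt pathway and is known to inhibit the kinases CLK2 and DYRK1A, which phosphorylate splicing factors and other proteins. A difference between drug effects, or interaction, is the drug effect in overexpressing cells minus the drug effect in empty vector cells. The same quantity is the vector effect (overexpressing over empty vector) in treated cells minus the vector effect in untreated cells, so the 4 group levels are needed to see where it arises.

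Totals ran from 38.4 to 45.3 M counts (1 M is 1000000) in treated overexpressing cells, 50 to 84.4 M in untreated overexpressing cells, 41.8 to 45.2 M in treated empty vector cells and 49.7 to 61.4 M in untreated empty vector cells. Treated libraries were therefore the less deeply sequenced ones. The untreated empty vector libraries were the least alike: replicate 1 had a score of 40.34 on the second principal component (2.2% of the variance), against scores of 23.438 and 9.284 for replicates 2 and 3, and counts over gene lists are given below with and without it where it matters. Levels are CPM, counts per 1000000 counts of a library after trimmed-mean scaling, and they do not correct for gene length. Monocytic identity genes were detected in all 12 libraries. SPI1, the transcription factor PU.1, was at 99.0 to 134 CPM and LYZ, lysozyme, at 276 to 732 CPM. CD14 varied far more between the libraries, from 0.167 to 22.2 CPM with a median of 10.3 CPM. Of the marker lists for other cells, the 12 measured epithelial genes summed to 11.6 to 13.4 CPM in treated and 19.4 to 20.8 CPM in untreated overexpressing cells, against 10.3 to 10.8 CPM in treated and 5.13 to 9.51 CPM in untreated empty vector cells. None of these 12 genes was without a count over the 4 groups. Of the 7 tested genes on this list, 4 were higher and 0 lower with S100A9 in untreated cells. A difference between drug effects was called for 2 of the 7, both negative, and the median was -1.02. KRT16, a keratin, made up much of the sum, at 8.02 CPM in untreated overexpressing and 1.75 CPM in untreated empty vector cells (difference -1.90). This list moved with the vector in untreated cells, and its part in the results was not tested. The 13 fibroblast and endothelial markers did so at lower levels, with summed CPM of 7.07 to 8.00 in treated and 5.34 to 6.62 in untreated overexpressing cells, against 7.02 to 7.46 in treated and 3.90 to 4.47 in untreated empty vector cells, and each of them had a count. Summed erythroid and megakaryocyte markers were at 317 to 327 CPM in treated and 179 to 191 CPM in untreated overexpressing cells, against 337 to 362 CPM in treated and 187 to 374 CPM in untreated empty vector cells, with PPBP alone of 12 at 0 counts. The untreated empty vector libraries thus differed most among themselves on that list, and the part of neither list was tested. Summed lymphoid markers ran from 56.9 to 63.9 CPM in treated and 79.9 to 87.9 CPM in untreated overexpressing cells, against 54.6 to 58.0 CPM in treated and 97.8 to 114 CPM in untreated empty vector cells, and their part was likewise not tested. In such bulk libraries, fewer cells of a type and less RNA per cell cannot be told apart.

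The targeted gene followed its labels. S100A9 was at 103, 113 and 105 CPM in treated overexpressing cells and 29.1, 28.8 and 26.3 CPM in untreated overexpressing cells, against 15.0, 14.0 and 12.8 CPM in treated empty vector cells and 9.38, 3.85 and 5.91 CPM in untreated empty vector cells. Both overexpressing groups lay above both empty vector groups, and within each vector the treated libraries lay above the untreated ones without overlap. The vector effect was 7.67-fold in treated and 4.36-fold in untreated cells. Its log2 difference of 0.81 (SE 0.28, adjusted p = 0.055) did not pass the threshold of an adjusted p below 0.05. This call was close: it passed in 4 of 8 alternative settings (adjusted p between 0.0431 and 0.089), and without untreated empty vector replicate 2 the difference was 1.07 with an adjusted p of 0.0048. Without untreated empty vector replicate 1 it was 0.42 with an adjusted p of 0.11. Counts of the vector-borne copy and of the cells' own gene cannot be told apart. The partner S100A8 was at 5.89, 6.10 and 4.75 CPM in treated overexpressing cells and 0.272, 0.625 and 0.301 CPM in untreated overexpressing cells, against 4.01, 4.07 and 4.31 CPM in treated empty vector cells and 1.08, 0.794 and 0.581 CPM in untreated empty vector cells. It was higher in both treated groups, and the untreated overexpressing libraries held the lowest median. Its difference was 1.42 (SE 0.39, adjusted p = 0.022), and the call was lost without treated overexpressing replicate 2, untreated overexpressing replicate 3 or untreated empty vector replicate 1 (adjusted p = 0.0515, 0.0599 and 0.0563). S100A12, the third calgranulin, had 10 counts in treated overexpressing, 0 in untreated overexpressing, 9 in treated empty vector and 15 in untreated empty vector cells and was not tested.

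The drug effect differed between the vectors for 2968 of 15403 genes tested, or 19.3%. The difference was positive (drug effect higher in overexpressing cells) for 1239 genes, 8.04% of those tested, and negative for 1729, 11.2%. Differences were mostly small: 303 genes, 1.97%, passed with an absolute log2 difference of at least 1, and the median over all genes tested was -0.02. Both drug effects themselves were broad, with 13048 genes (84.7%) called in overexpressing cells, 43.4% of all genes higher and 41.3% lower, and 13143 (85.3%) in empty vector cells, 44.2% higher and 41.1% lower. Of the 2968 genes, 2133 moved the same way under the drug with both vectors, 677 were called with 1 vector and not with the other, and 158 were called in opposite directions. Without untreated overexpressing replicate 2, the most deeply sequenced library, 1885 genes passed. The split of signs depended on the scaling: with library totals in place of trimmed-mean factors 961 of 3340 called differences were positive, and the vector effect in treated cells was higher for 393 of 1948 called genes. With upper quartile factors these counts were 1486 of 3034 and 745 of 1382.

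Most of these differences lay in untreated cells. The vector effect was called for 1309 genes (8.5%) in treated cells, 569 higher (3.69%) and 740 lower (4.8%), and for 4307 (28.0%) in untreated cells, 2297 higher (14.9%) and 2010 lower (13.0%). The 2 vector contrasts share no library, whereas the interaction shares libraries with both. Among the 2968 genes, the vector effect was called in untreated cells and not in treated cells for 1918 (64.6%), in treated cells and not in untreated cells for 435 (14.7%), in both in opposite directions for 216 (7.28%), in both in the same direction for 19 (0.64%) and in neither for 380 (12.8%). Their median absolute vector effect was 0.16 log2 units in treated and 0.31 in untreated cells. The treated count depended on single libraries: it was 669, 543 and 775 without treated overexpressing replicate 1, 2 or 3, 691 and 502 without treated empty vector replicate 1 or 2, and 2000 without untreated empty vector replicate 1. The untreated count was 2735 without untreated overexpressing replicate 2. The class called in treated cells alone held 202 to 285 genes without 1 of the treated overexpressing replicates, 244 and 201 without treated empty vector replicate 1 or 2, and 656 without untreated empty vector replicate 1. The class called in untreated cells alone held 1154 and 1249 genes without untreated overexpressing replicate 2 or 3. The class with opposite directions held 69 to 139 genes without any single one of the treated overexpressing replicates, untreated overexpressing replicate 2 or 3, treated empty vector replicate 1 or 2, or untreated empty vector replicate 2.

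**Figure D1:**
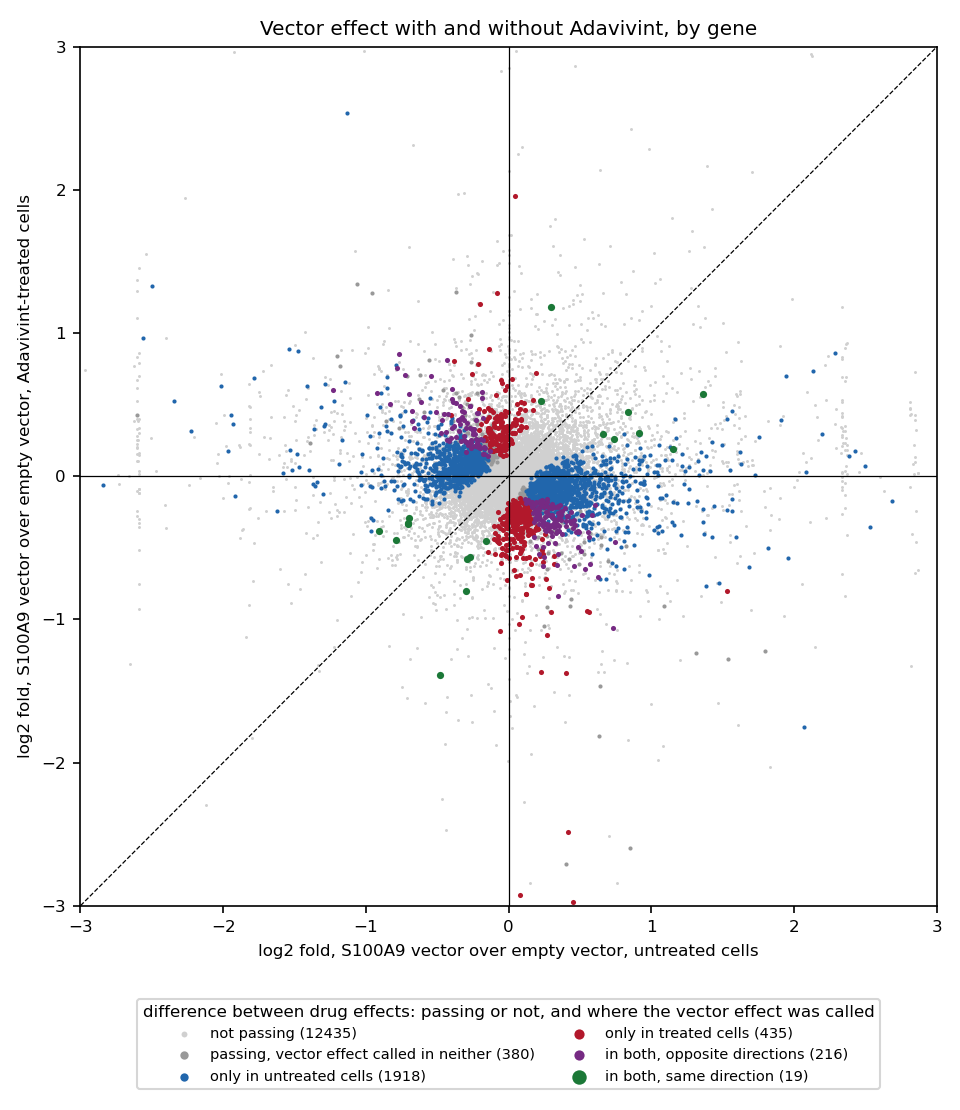
Log2 fold of the S100A9 vector over the empty vector for each of the 15403 genes tested, in Adavivint-treated cells (vertical axis) and untreated cells (horizontal axis), coloured by where the vector effect was called among genes whose drug effects differed. The blue cloud of 1918 genes lies along the horizontal axis and the red one of 435 along the vertical axis. Of all 15403 genes tested, called or not, 200 with a fold beyond 3 log2 units on either axis lie outside the plot.

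Genes of the amino acid response had mostly negative differences, with higher levels in S100A9 cells when no drug was given. This response is run by the transcription factor ATF4, which is translated when amino acids run short or the endoplasmic reticulum is stressed and which switches on amino acid synthesis, uptake and tRNA charging. Of 35 tested genes on the list, 22 had a negative and 0 a positive difference, where 11.2% and 8.04% of all genes tested did. The median difference was -0.58, against -0.02 over all genes tested. The vector effect on the list had a median of 0.06 in treated and 0.56 in untreated cells: 4 of 35 were higher and 4 lower with S100A9 in treated cells (3.69% and 4.8% of all genes), and 30 higher and 1 lower in untreated cells (14.9% and 13.0% of all genes). Without untreated empty vector replicate 1, 22 differences were again negative, with a median of -0.57, and 8 genes were higher and 7 lower in treated cells. The negative count ran from 17 to 22 when each library was left out in turn. The gene with the smallest p on the list, ASNS, makes asparagine and is a known ATF4 target. The sequence upstream of its start is shown because it holds the letters of the amino acid response element (TGATGNAAN on either strand), given in capitals; it is the RefSeq promoter sequence of GRCh38.p14, chr7:97872409-97872588, minus strand, 5′ to 3′.

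ASNS: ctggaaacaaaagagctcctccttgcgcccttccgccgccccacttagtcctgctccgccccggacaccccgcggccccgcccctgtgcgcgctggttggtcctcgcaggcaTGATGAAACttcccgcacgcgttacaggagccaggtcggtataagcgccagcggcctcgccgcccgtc

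ASNS was at 32.7, 33.8 and 35.5 CPM in treated overexpressing cells and 108, 114 and 112 CPM in untreated overexpressing cells, against 35.4, 35.0 and 38.0 CPM in treated empty vector cells and 41.8, 49.2 and 48.4 CPM in untreated empty vector cells. The untreated overexpressing libraries lay far above the 9 others, and the treated libraries of the 2 vectors overlapped. ASNS was 2.41-fold higher with S100A9 in untreated cells (log2 1.27, adjusted p = 1.5e-07), its vector effect in treated cells was -0.09 (adjusted p = 0.46), and the difference was -1.36 (SE 0.09, adjusted p = 8.8e-06). The drug lowered it 3.29-fold in overexpressing cells and 1.28-fold in empty vector cells. The same letters occurred in 6 of the 28 promoters found for the list (ATF3, CHAC1, ASNS, MTHFD1L, SLC7A1 and SLC3A2), or 21.4%, against 3.67% of all 27305 promoters in the table. The letters were not the most frequent on this list. Those of the antioxidant response element (TGACNNNGC) occurred in 9 of the 28, or 32.1%, against 13.6% of all promoters. A match is a description of the sequence and not evidence of binding.

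PHGDH, the first enzyme of serine synthesis, was at 83.4, 80.6 and 87.5 CPM in treated overexpressing cells and 495, 467 and 452 CPM in untreated overexpressing cells, against 105, 115 and 118 CPM in treated empty vector cells and 299, 336 and 321 CPM in untreated empty vector cells. It was lower with S100A9 in treated cells and higher with S100A9 in untreated cells, with no overlap in either, and its difference was -0.99 (SE 0.08, adjusted p = 4.6e-05). DDIT3, the stress-induced factor CHOP, averaged 45.3 ± 2.45 CPM in treated and 15.1 ± 0.495 CPM in untreated overexpressing cells, against 42.1 ± 0.0918 CPM in treated and 7.92 ± 0.121 CPM in untreated empty vector cells. The drug raised it with both vectors, 3.01-fold in overexpressing and 5.31-fold in empty vector cells, and the difference was -0.82 (SE 0.08, adjusted p = 0.00010). ATF5, a bZIP factor induced with ATF4, averaged 50.3 ± 2.80 CPM in treated and 142 ± 4.75 CPM in untreated overexpressing cells, against 33.8 ± 1.48 CPM in treated and 55.1 ± 3.74 CPM in untreated empty vector cells. It was higher with S100A9 in both treated and untreated cells, 1.49-fold and 2.57-fold, with a difference of -0.79 (SE 0.09, adjusted p = 0.00018). DDIT3 and ATF5 overlap genes on the other strand (MARS1 and MBD6, IL4I1 and NUP62), and DDIT3 also overlaps an unnamed gene on the same strand. The strand setting of the counting was not given in the sources used here, so their counts are uncertain. Other genes given in the text overlap neighbours without being flagged singly. Among them are CCND2 (same strand) and IL18, HNRNPA2B1 and BORA (other strand). Genes of the list that did not pass included TRIB3, a stress-induced pseudokinase (difference -0.02, adjusted p = 0.89) and SLC7A5, a large neutral amino acid transporter (difference 0.13, adjusted p = 0.60).

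The aminoacyl-tRNA synthetases, which charge tRNAs with amino acids, had the same sign for the most part: 12 of 20 had a negative and 1 a positive difference (11.2% and 8.04% of all genes tested), with a median of -0.37, a treated vector median of -0.03 and an untreated one of 0.34. CARS1, which charges cysteine tRNA, averaged 50.4 ± 1.54 CPM in treated and 151 ± 5.98 CPM in untreated overexpressing cells, against 57.8 ± 2.47 CPM in treated and 99.1 ± 4.28 CPM in untreated empty vector cells. It was called in opposite directions, lower with S100A9 in treated and higher in untreated cells, with a difference of -0.80 (SE 0.07, adjusted p = 5.5e-05). GARS1, for glycine, had the same pattern with a difference of -0.69 (SE 0.07, adjusted p = 0.00018), and SARS1, for serine, was called in untreated cells alone, with a difference of -0.66 (SE 0.08, adjusted p = 0.00044). The exception was FARSA, a subunit of the phenylalanine enzyme, with a positive difference of 0.37, adjusted p = 0.020. Outside these lists, TXNIP, which binds thioredoxin and restrains glucose uptake, was at 468, 495 and 483 CPM in treated overexpressing cells and 246, 259 and 257 CPM in untreated overexpressing cells, against 419, 413 and 434 CPM in treated empty vector cells and 119, 107 and 117 CPM in untreated empty vector cells. The drug raised it with both vectors, and the vectors did not overlap in either condition. TXNIP was higher with S100A9 in treated and in untreated cells (1.14-fold and 2.23-fold), and its difference was -0.96 (SE 0.07, adjusted p = 9.3e-06).

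**Figure D2:**
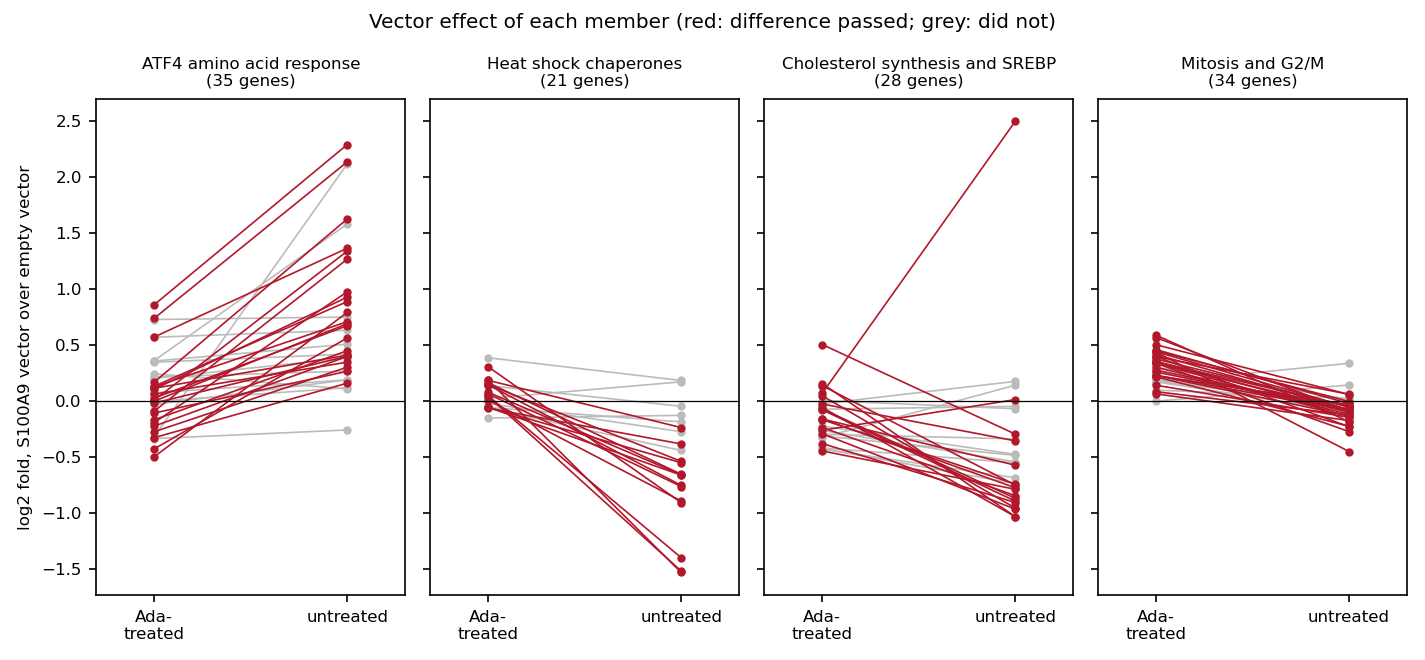
Log2 fold of the S100A9 vector over the empty vector for each tested member of 4 gene lists, in Adavivint-treated (left) and untreated cells (right), with lines joining the same gene. Red lines mark genes whose difference passed (22 of 35, 14 of 21, 17 of 28 and 26 of 34): most members of the first 3 lists lie further from 0 in untreated cells, and the mitosis list lies mostly above 0 in treated cells.

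Heat shock chaperones had positive differences, with lower levels in S100A9 cells when no drug was given. These proteins fold other proteins and are switched on by the factor HSF1. Of 21 tested, 14 had a positive and 0 a negative difference, with a median of 0.61 (8.04% of all genes were positive). The vector medians were 0.05 in treated and -0.55 in untreated cells, where 17 of 21 were lower with S100A9 (13.0% of all genes), and all 14 were called in untreated and not in treated cells. Without untreated empty vector replicate 1 there were again 14 positive calls, with a median of 0.46. HSPA8, the constitutive cytosolic HSP70, is shown because its upstream sequence holds a heat shock element (GAA, TTC and GAA, each 2 bases apart, on either strand, in capitals; here read on the other strand, as TTC, GAA and TTC), in RefSeq sequence of GRCh38.p14, chr11:123062137-123062316, minus strand, 5′ to 3′.

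HSPA8: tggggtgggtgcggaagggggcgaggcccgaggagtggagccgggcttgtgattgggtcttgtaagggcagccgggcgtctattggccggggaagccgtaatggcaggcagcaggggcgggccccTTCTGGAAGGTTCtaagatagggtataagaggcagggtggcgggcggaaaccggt

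HSPA8 was at 701, 742 and 698 CPM in treated overexpressing cells and 506, 501 and 484 CPM in untreated overexpressing cells, against 630, 636 and 618 CPM in treated empty vector cells and 2050, 1250 and 1010 CPM in untreated empty vector cells. The untreated empty vector libraries were the highest and spread widely, with replicate 1 well above the other two, and no group overlapped another. Its difference was 1.71 (SE 0.25, adjusted p = 0.00099), and between 1.37 and 1.91 when single libraries were left out. The drug raised it 1.44-fold in overexpressing cells and lowered it 2.28-fold in empty vector cells. HSPA1A, the stress-inducible HSP70, was at 42.6, 47.0 and 43.3 CPM in treated overexpressing cells and 14.3, 13.4 and 13.1 CPM in untreated overexpressing cells, against 40.3, 43.6 and 45.2 CPM in treated empty vector cells and 46.3, 36.8 and 33.3 CPM in untreated empty vector cells. Here the untreated overexpressing libraries were low and the other 3 groups overlapped. The difference was 1.56 (SE 0.14, adjusted p = 5.5e-05), but reads of HSPA1A and the near-identical HSPA1B cannot be told apart with certainty. BAG3, a co-chaperone of HSP70, averaged 22.1 ± 0.460 CPM in treated and 8.99 ± 0.337 CPM in untreated overexpressing cells, against 19.7 ± 1.45 CPM in treated and 14.1 ± 0.772 CPM in untreated empty vector cells, with a difference of 0.82 (SE 0.10, adjusted p = 0.00050), and DNAJA1, a J-domain partner of HSP70, had one of 1.21 (SE 0.16, adjusted p = 0.00069). HSP90AB1, the constitutive HSP90, did not pass (difference 0.13, adjusted p = 0.28). The heat shock letters occurred in 3 of 19 promoters found for the list (HSPA8, DNAJA1 and CHORDC1), 15.8% against 0.487% of all promoters.

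Genes of the unfolded protein response, which serves folding in the endoplasmic reticulum, had 8 positive and 2 negative differences among 24 genes and a median of 0.24. Of all genes tested, 8.04% were positive and 11.2% negative, so the negative members were no more frequent than over all genes. Their vector medians were -0.07 in treated and -0.37 in untreated cells, and the median difference was 0.11 without untreated empty vector replicate 1. HSPA5, the master chaperone BiP, was at 653, 687 and 669 CPM in treated overexpressing cells and 277, 284 and 278 CPM in untreated overexpressing cells, against 579, 579 and 631 CPM in treated empty vector cells and 677, 409 and 354 CPM in untreated empty vector cells. Untreated empty vector replicate 1 stood level with the treated overexpressing libraries, while replicates 2 and 3 lay well under it. The difference was 0.95 (SE 0.23, adjusted p = 0.014), and 0.61 without that replicate (adjusted p = 0.00049). The negative members were ERN1, the stress sensor IRE1 (difference -0.38, adjusted p = 0.0076), and ATF6, another sensor (difference -0.24, adjusted p = 0.038), both higher with S100A9 in untreated cells.

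Genes of cholesterol synthesis, which the SREBP factors switch on when sterols are low, had 15 positive and 2 negative differences among 28, with a median of 0.34 (8.04% of all genes were positive and 11.2% negative). The vector medians were -0.16 in treated and -0.63 in untreated cells, and 8 of 28 were lower with S100A9 in treated cells and 21 of 28 in untreated cells, where 4.8% and 13.0% of all genes were. The 15 positive calls numbered 14 without untreated empty vector replicate 1 and 10 without treated overexpressing replicate 2. HMGCS1, which makes HMG-CoA for the pathway, was at 99.7, 126 and 107 CPM in treated overexpressing cells and 84.9, 89.3 and 91.6 CPM in untreated overexpressing cells, against 111, 97.0 and 90.3 CPM in treated empty vector cells and 213, 149 and 181 CPM in untreated empty vector cells. The treated groups overlapped, and in untreated cells the overexpressing libraries lay below the empty vector ones. The difference was 1.19 (SE 0.16, adjusted p = 0.00074). The drug raised it 1.25-fold in overexpressing cells and lowered it 1.82-fold in empty vector cells.

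INSIG1, which holds SREBP in the endoplasmic reticulum and is itself a target, was at 117, 133 and 124 CPM in treated overexpressing cells and 246, 264 and 266 CPM in untreated overexpressing cells, against 137, 131 and 121 CPM in treated empty vector cells and 575, 502 and 511 CPM in untreated empty vector cells. Again the treated groups overlapped and the untreated groups did not. Its difference was 0.97 (SE 0.09, adjusted p = 8.4e-05), with a drug effect of 2.08-fold lower in overexpressing and 4.08-fold lower in empty vector cells. IDI1, an isomerase of the pathway, had a difference of 1.00 (SE 0.13, adjusted p = 0.00056). The negative members were SREBF2, the gene of the factor itself (difference -0.27, adjusted p = 0.0073), and NPC1L1, which is nearly silent in untreated cells and is described with such genes below.

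**Figure D3:**
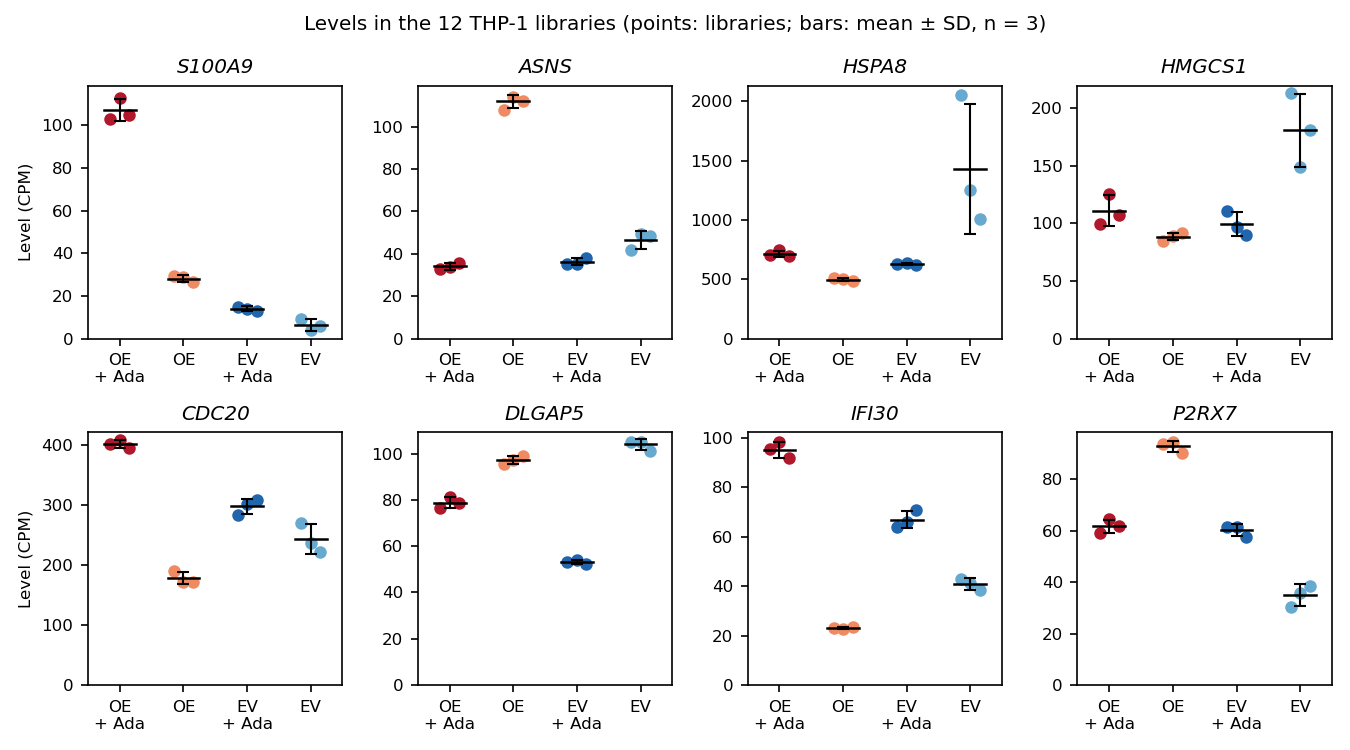
Levels (CPM) of 8 genes in the 12 THP-1 libraries, with a panel per gene: overexpressing (OE) cells with Adavivint (Ada), overexpressing cells, empty vector (EV) cells with Adavivint and empty vector cells. Points are libraries and bars give mean ± SD (n = 3); ASNS and P2RX7 stand highest in untreated overexpressing cells, HSPA8 and HMGCS1 in untreated empty vector cells, and CDC20 and IFI30 in treated overexpressing cells.

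The differences of mitotic genes lay mainly in treated cells, where S100A9 cells held the higher levels. Of 34 tested genes on a list of mitosis and G2/M, the phase before division, 26 had a positive and 0 a negative difference, with a median of 0.38 (8.04% of all genes were positive). In treated cells 24 were higher with S100A9 and 0 lower (median 0.30), where 3.69% and 4.8% of all genes were. In untreated cells 1 was higher and 7 lower (median -0.08), where 14.9% and 13.0% of all genes were. Of the 26, 18 were called in treated and not in untreated cells and 5 in both in opposite directions. The 7 lower genes in untreated cells became 4 without untreated overexpressing replicate 3 or untreated empty vector replicate 1. The count of positive differences was 25 without untreated empty vector replicate 1, and 24 to 29 when each library was left out in turn. The upstream sequences of CDC20 and DLGAP5 are shown because both hold the letters of the cell cycle genes homology region (TTTGAA) and of the CCAAT box (CCAAT), which are known elements of promoters of mitotic genes. Matches on either strand are in capitals, in RefSeq sequence of GRCh38.p14, for CDC20 at chr1:43358801-43358980, plus strand, and for DLGAP5 at chr14:55191586-55191765, minus strand, each 5′ to 3′.

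CDC20: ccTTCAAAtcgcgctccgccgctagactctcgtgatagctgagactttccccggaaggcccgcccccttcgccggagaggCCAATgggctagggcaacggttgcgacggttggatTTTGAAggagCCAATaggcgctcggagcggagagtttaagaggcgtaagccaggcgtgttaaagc
DLGAP5: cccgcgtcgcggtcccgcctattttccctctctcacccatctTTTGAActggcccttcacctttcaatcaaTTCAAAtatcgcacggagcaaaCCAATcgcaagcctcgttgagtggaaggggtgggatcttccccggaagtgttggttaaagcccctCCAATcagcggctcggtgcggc

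CDC20, the activator of the anaphase-promoting complex, was at 401, 408 and 395 CPM in treated overexpressing cells and 190, 172 and 171 CPM in untreated overexpressing cells, against 282, 301 and 307 CPM in treated empty vector cells and 270, 236 and 221 CPM in untreated empty vector cells. Treated overexpressing libraries were the highest and untreated overexpressing libraries the lowest, with no overlap between vectors in either condition. The drug raised it 2.26-fold in overexpressing and 1.22-fold in empty vector cells, and the difference was 0.89 (SE 0.10, adjusted p = 0.00018). DLGAP5, a spindle assembly protein, was at 76.4, 81.2 and 78.8 CPM in treated overexpressing cells and 95.6, 97.3 and 98.8 CPM in untreated overexpressing cells, against 53.3, 54.0 and 52.4 CPM in treated empty vector cells and 105, 105 and 101 CPM in untreated empty vector cells. The drug lowered it with both vectors, and the treated libraries of the 2 vectors were well apart, 1.48-fold. In untreated cells the vector effect was -0.09 (adjusted p = 0.12), and the difference was 0.66 (SE 0.06, adjusted p = 5.5e-05). CCNB1, cyclin B1, averaged 311 ± 6.71 CPM in treated and 138 ± 2.42 CPM in untreated overexpressing cells, against 207 ± 14.8 CPM in treated and 157 ± 13.9 CPM in untreated empty vector cells, with a difference of 0.77 (SE 0.09, adjusted p = 0.00028). BIRC5, survivin, averaged 109 ± 4.86 CPM in treated and 60.2 ± 1.17 CPM in untreated overexpressing cells, against 82.6 ± 2.78 CPM in treated and 70.5 ± 6.81 CPM in untreated empty vector cells, with a difference of 0.62 (SE 0.09, adjusted p = 0.00093). PLK1, a mitotic kinase, did not pass (difference 0.24, adjusted p = 0.14). Of 27 promoters found for the list, 17 held TTTGAA (63.0%, against 15.4% of all promoters) and 21 held CCAAT (77.8%, against 35.7%). Among promoters of tested genes these shares were 10.3% and 36.4%. The CCAAT letters were not particular to this list. They occurred in 17 of 21 promoters of the cholesterol list (81.0%) and 15 of 28 of the amino acid response list (53.6%). On the heat shock list, 6 of 19 held them (31.6%).

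Genes of DNA replication and the G1/S transition had fewer calls: 1 of 34 had a positive and 9 a negative difference, with a median of -0.14, where 8.04% and 11.2% of all genes tested did. In treated cells 11 were lower with S100A9 and 0 higher (median -0.20; 4.8% and 3.69% of all genes), and in untreated cells 9 were lower and 2 higher (median -0.10; 13.0% and 14.9% of all genes). The 9 became 5 without treated overexpressing replicate 2 and 14 without untreated empty vector replicate 1. The 11 became 7 without treated overexpressing replicate 1. The 9 lower genes in untreated cells became 5, 4 and 4 without untreated overexpressing replicate 1, 2 or 3, and 1 and 14 without untreated empty vector replicate 1 or 3. MCM5, a subunit of the replicative helicase, was at 43.9, 46.2 and 51.0 CPM in treated overexpressing cells and 254, 229 and 222 CPM in untreated overexpressing cells, against 71.9, 73.9 and 60.4 CPM in treated empty vector cells and 254, 229 and 235 CPM in untreated empty vector cells. The drug lowered it strongly with both vectors, and the vectors overlapped in untreated and not in treated cells. Its difference was -0.52 (SE 0.11, adjusted p = 0.0084). CDT1, which loads that helicase, averaged 60.2 ± 0.754 CPM in treated and 87.9 ± 5.03 CPM in untreated overexpressing cells, against 78.6 ± 5.17 CPM in treated and 68.7 ± 3.14 CPM in untreated empty vector cells, with a difference of -0.74 (SE 0.08, adjusted p = 0.00022). CCND2, cyclin D2, averaged 34.4 ± 3.93 CPM in treated and 48.1 ± 1.06 CPM in untreated overexpressing cells, against 54.2 ± 2.06 CPM in treated and 46.9 ± 4.94 CPM in untreated empty vector cells, with a difference of -0.69 (SE 0.12, adjusted p = 0.0028). It belongs to a separate list of CDK inhibitors, D cyclins and CDK6. That list had 2 positive and 1 negative differences among 12 genes (8.04% and 11.2% of all genes). The other D cyclins, CCND3 and CCND1, were the positive ones, with differences of 0.73 and 0.81.

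Immune genes split. IFI30, a lysosomal thiol reductase used in antigen processing, had the smallest p among the named genes. It was at 95.6, 98.4 and 92.0 CPM in treated overexpressing cells and 22.9, 22.8 and 23.5 CPM in untreated overexpressing cells, against 64.1, 66.1 and 70.9 CPM in treated empty vector cells and 43.1, 41.4 and 38.4 CPM in untreated empty vector cells. All 4 groups were apart: S100A9 went with a higher level in treated cells (1.42-fold) and a lower one in untreated cells (1.78-fold). The difference was 1.34 (SE 0.08, adjusted p = 3.7e-06), although the annotation places an unnamed gene over IFI30 on the same strand, with which its reads could be shared. P2RX7, an ATP-gated channel that activates the inflammasome, was at 59.0, 64.3 and 61.6 CPM in treated overexpressing cells and 93.5, 94.2 and 90.2 CPM in untreated overexpressing cells, against 61.5, 61.4 and 57.6 CPM in treated empty vector cells and 30.3, 35.8 and 38.6 CPM in untreated empty vector cells. The treated groups overlapped, and untreated overexpressing libraries lay above and untreated empty vector libraries below them. Its difference was -1.38 (SE 0.10, adjusted p = 1.3e-05), with the drug lowering it 1.5-fold in overexpressing cells and raising it 1.73-fold in empty vector cells. On the inflammasome list, 3 of 14 genes had a positive and 2 a negative difference (8.04% and 11.2% of all genes), with a median of 0.16. P2RX7 and IL18 were the negative ones, and MEFV (0.43) and CASP4 (0.31) were among the positive ones. The positive count ran from 0 to 4 when each library was left out in turn.

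Of 31 tested NF-kB and inflammatory genes, 5 had a positive and 7 a negative difference (median -0.14), where 8.04% and 11.2% of all genes did, and the median was -0.22 without treated overexpressing replicate 2. The untreated vector median was 0.17, with 12 higher and 4 lower. The share of lower genes there was close to the 13.0% of all genes, while 14.9% of all genes were higher. The 5 positive calls became 3 without treated overexpressing replicate 1 or 2, untreated overexpressing replicate 3, or treated empty vector replicate 1 or 2. BIRC3, an apoptosis inhibitor and NF-kB target, was at 14.9, 16.6 and 15.9 CPM in treated overexpressing cells and 15.2, 17.1 and 16.0 CPM in untreated overexpressing cells, against 18.0, 16.1 and 15.2 CPM in treated empty vector cells and 8.40, 5.00 and 7.15 CPM in untreated empty vector cells. The untreated empty vector libraries were low and the 3 other groups overlapped. The difference was -1.29 (SE 0.20, adjusted p = 0.0014). RELB and NFKB2, subunits of the alternative NF-kB pathway, were also lowest in the untreated empty vector libraries, with differences of -1.23 (SE 0.22, adjusted p = 0.0033) and -0.97 (SE 0.18, adjusted p = 0.0035). TNF, the cytokine, averaged 5.20 ± 0.282 CPM in treated and 6.25 ± 0.281 CPM in untreated overexpressing cells, against 3.81 ± 0.424 CPM in treated and 8.89 ± 1.28 CPM in untreated empty vector cells, with a difference of the other sign, 0.96 (SE 0.18, adjusted p = 0.0037). The interferon response list had 2 positive and 10 negative differences among 44 genes (median -0.20; 8.04% and 11.2% of all genes). The 10 became 5 without untreated overexpressing replicate 2, where 6.99% of all genes tested were negative, and 6 without treated empty vector replicate 1, where 7.89% were. IFIH1, the RNA sensor MDA5, averaged 41.8 ± 0.333 CPM in treated and 44.9 ± 1.19 CPM in untreated overexpressing cells, against 41.1 ± 1.17 CPM in treated and 26.0 ± 2.58 CPM in untreated empty vector cells, with a difference of -0.76 (SE 0.09, adjusted p = 0.00039). GBP5, an interferon-induced GTPase, averaged 5.49 ± 0.488 CPM in treated and 22.1 ± 0.842 CPM in untreated overexpressing cells, against 8.61 ± 0.869 CPM in treated and 15.2 ± 0.661 CPM in untreated empty vector cells, with a difference of -1.18 (SE 0.13, adjusted p = 0.00018).

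Of the receptors and relays through which S100A8 and S100A9 are known to signal, 2 of 14 passed, both negative. This is close to the share over all genes tested, of which 19.3% passed and 11.2% were negative. IRAK4, a kinase downstream of TLR4, averaged 41.2 ± 2.66 CPM in treated and 47.9 ± 1.95 CPM in untreated overexpressing cells, against 45.8 ± 1.55 CPM in treated and 39.8 ± 2.62 CPM in untreated empty vector cells, with a difference of -0.42 (SE 0.09, adjusted p = 0.0081). AGER, the receptor RAGE, averaged 12.4 ± 0.609 CPM in treated and 8.49 ± 0.377 CPM in untreated overexpressing cells, against 14.6 ± 0.809 CPM in treated and 6.43 ± 1.2 CPM in untreated empty vector cells, with a difference of -0.63 (SE 0.17, adjusted p = 0.019).

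Among 22 tested myeloid transcription factors, 4 had a positive and 0 a negative difference (median 0.10). A share of 19.3% of all genes passed, 8.04% positive and 11.2% negative, so the list passed about as often as all genes. Its median ran from 0.06 to 0.16 when each library was left out in turn. GATA2, a factor of progenitors, was at 11.2, 12.3 and 11.2 CPM in treated overexpressing cells and 5.57, 5.09 and 5.48 CPM in untreated overexpressing cells, against 9.24, 8.59 and 7.42 CPM in treated empty vector cells and 9.38, 7.67 and 8.73 CPM in untreated empty vector cells. S100A9 went with a higher level in treated and a lower one in untreated cells, and the difference was 1.14 (SE 0.15, adjusted p = 0.00066). CEBPA, which drives granulocyte and monocyte fate, averaged 246 ± 3.08 CPM in treated and 177 ± 2.57 CPM in untreated overexpressing cells, against 211 ± 10.4 CPM in treated and 216 ± 13.4 CPM in untreated empty vector cells, with a difference of 0.50 (SE 0.07, adjusted p = 0.00097), and CEBPE, a later granulocytic factor, had one of 0.74 (SE 0.16, adjusted p = 0.0078). Monocyte and macrophage markers had 6 positive and 2 negative differences among 23 (median 0.09), the negative ones again no more frequent than over all genes. Without single libraries, 4 to 6 were positive and 0 to 3 negative, with medians from 0.08 to 0.30 and one of 0.25 without untreated empty vector replicate 1. ITGAM, the integrin CD11b, averaged 9.66 ± 0.729 CPM in treated and 23.2 ± 0.846 CPM in untreated overexpressing cells, against 7.75 ± 0.473 CPM in treated and 27.6 ± 0.813 CPM in untreated empty vector cells, with a difference of 0.57 (SE 0.11, adjusted p = 0.0036). Granule genes had 5 positive and 2 negative differences among 14 (8.04% and 11.2% of all genes), and 3 to 5 positive and 0 to 3 negative ones when each library was left out in turn. The list did not lean one way: its median was -0.07, and 8 of the 14 had a negative sign, called or not. GZMA and SRGN, given next, are among the positive calls. GZMA, granzyme A, was at 2.21, 2.23 and 1.68 CPM in treated overexpressing cells and 2.45, 2.40 and 1.90 CPM in untreated overexpressing cells, against 1.47, 1.45 and 1.03 CPM in treated empty vector cells and 11.3, 8.46 and 7.57 CPM in untreated empty vector cells. The untreated empty vector libraries stood above all others, and the difference was 2.65 (SE 0.28, adjusted p = 0.00018). SRGN, the granule proteoglycan serglycin, averaged 324 ± 8.90 CPM in treated and 406 ± 28.8 CPM in untreated overexpressing cells, against 256 ± 25.8 CPM in treated and 644 ± 50.5 CPM in untreated empty vector cells, with a difference of 1.00 (SE 0.11, adjusted p = 0.00018).

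Energy metabolism held differences of both signs. Glycolysis and hypoxia genes had 4 positive and 9 negative differences among 29 (median -0.03), where 8.04% and 11.2% of all genes did. The median was -0.12 without untreated empty vector replicate 1 and 0.01 without replicate 3 of that group. PDK1, which inhibits the mitochondrial enzyme pyruvate dehydrogenase, was at 111, 116 and 120 CPM in treated overexpressing cells and 987, 1100 and 1110 CPM in untreated overexpressing cells, against 190, 187 and 154 CPM in treated empty vector cells and 672, 741 and 733 CPM in untreated empty vector cells. The drug lowered it with both vectors, 9.20-fold in overexpressing and 4.04-fold in empty vector cells. It was lower with S100A9 in treated and higher in untreated cells, and the difference was -1.19 (SE 0.11, adjusted p = 5.5e-05). VEGFA, the angiogenic factor, averaged 54.3 ± 1.76 CPM in treated and 241 ± 2.78 CPM in untreated overexpressing cells, against 45.3 ± 2.20 CPM in treated and 145 ± 4.81 CPM in untreated empty vector cells, with a difference of -0.48 (SE 0.07, adjusted p = 0.00081). Of the 13 mitochondrially encoded genes, 6 had a positive and 0 a negative difference (median 0.34; 8.04% and 11.2% of all genes), and 5 to 8 a positive one when each library was left out in turn. MT-CYB, cytochrome b, was at 3360, 3460 and 3260 CPM in treated overexpressing cells and 1900, 1870 and 1830 CPM in untreated overexpressing cells, against 2510, 2510 and 2690 CPM in treated empty vector cells and 2420, 3490 and 3050 CPM in untreated empty vector cells. Untreated overexpressing libraries were the lowest, and untreated empty vector libraries ranged widely and overlapped both treated groups. Its difference was 1.07 (SE 0.13, adjusted p = 0.00042).

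Genes outside these groups also differed. BMF, a pro-apoptotic BCL2 family member, averaged 104 ± 1.13 CPM in treated and 39.9 ± 2.01 CPM in untreated overexpressing cells, against 111 ± 5.77 CPM in treated and 21.3 ± 2.44 CPM in untreated empty vector cells, with a difference of -1.0 (SE 0.10, adjusted p = 0.00010). The BCL2 family list had 1 positive and 2 negative differences among 14 (8.04% and 11.2% of all genes), with a median of 0.12. Its positive member was BIK, with a difference of 0.79. ID1 and ID3, inhibitors of bHLH factors and targets of BMP signalling, had differences of 1.53 (SE 0.21, adjusted p = 0.00073) and 2.04 (SE 0.33, adjusted p = 0.0018). For ID3, counts summed to 41 in treated overexpressing, 808 in untreated overexpressing, 29 in treated empty vector and 1718 in untreated empty vector cells. SPRY4, a feedback inhibitor of MAPK signalling, averaged 4.37 ± 0.470 CPM in treated and 3.09 ± 0.607 CPM in untreated overexpressing cells, against 4.29 ± 0.132 CPM in treated and 9.23 ± 2.02 CPM in untreated empty vector cells, with a difference of 1.60 (SE 0.25, adjusted p = 0.0015). The list of ID genes and BMP-SMAD feedback had 3 positive and 1 negative difference among 14, and so did the list of MAPK feedback genes.

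The drug's named target kinases did not pass. CLK2 averaged 77.7 ± 1.89 CPM in treated and 78.7 ± 4.35 CPM in untreated overexpressing cells, against 81.3 ± 7.69 CPM in treated and 73.7 ± 5.63 CPM in untreated empty vector cells, with a difference of -0.16 (SE 0.10, adjusted p = 0.29), and DYRK1A averaged 260 ± 7.62 CPM in treated and 114 ± 2.55 CPM in untreated overexpressing cells, against 236 ± 7.92 CPM in treated and 108 ± 1.82 CPM in untreated empty vector cells, with a difference of 0.06 (SE 0.06, adjusted p = 0.51). CLK1, CLK3 and CLK4 had differences of -0.11, 0.02 and -0.20 (adjusted p = 0.63, 0.94 and 0.086), none of which passed, and the signs of CLK1, CLK3 and DYRK1A turned in at least 1 alternative setting. CLK4 passed with library totals (adjusted p = 0.0394) and without untreated empty vector replicate 3 (adjusted p = 0.0499), while its adjusted p reached 0.163 over the alternatives. Of 14 CLK, DYRK and HIPK kinases, DYRK4 (difference -0.39, adjusted p = 0.017) and HIPK3 (difference 0.20, adjusted p = 0.049) passed, 2 of 14 where 19.3% of all genes tested passed. The HIPK3 call was lost in all 12 fits that left out a library. Of 32 tested genes of Wnt signalling, FZD1, a Wnt receptor, alone passed, with a difference of 0.32 (SE 0.10, adjusted p = 0.034), and the call held in 4 of 12 fits that each left out 1 library. CTNNB1, beta-catenin, and AXIN2, a feedback target, did not (differences 0.18 and 0.06, adjusted p = 0.075 and 0.97), and the sign of AXIN2 turned in alternative settings too. CTNNB1 passed in 3 of 8 alternative settings (adjusted p between 0.013 and 0.164 over the 8) and without untreated empty vector replicate 3 (adjusted p = 0.0456). MYC, a transcription factor of growth and a Wnt target, averaged 21.5 ± 3.60 CPM in treated and 321 ± 7.05 CPM in untreated overexpressing cells, against 16.8 ± 1.72 CPM in treated and 348 ± 21.3 CPM in untreated empty vector cells. Its difference was 0.47 (SE 0.14, adjusted p = 0.030), with adjusted p up to 0.0772 when single libraries were left out, 8 of which ended the call. Among SR proteins and hnRNPs, which choose splice sites, 13 of 32 had a positive and 1 a negative difference (median 0.16; 8.04% and 11.2% of all genes). The median was 0.10 without untreated empty vector replicate 1, with 12 positive, and there were 8 positive without treated overexpressing replicate 3 or treated empty vector replicate 2. HNRNPA2B1 averaged 3060 ± 29.4 CPM in treated and 2000 ± 99.1 CPM in untreated overexpressing cells, against 2730 ± 41.3 CPM in treated and 2500 ± 166 CPM in untreated empty vector cells, with a difference of 0.49 (SE 0.07, adjusted p = 0.0012).

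**Figure D4:**
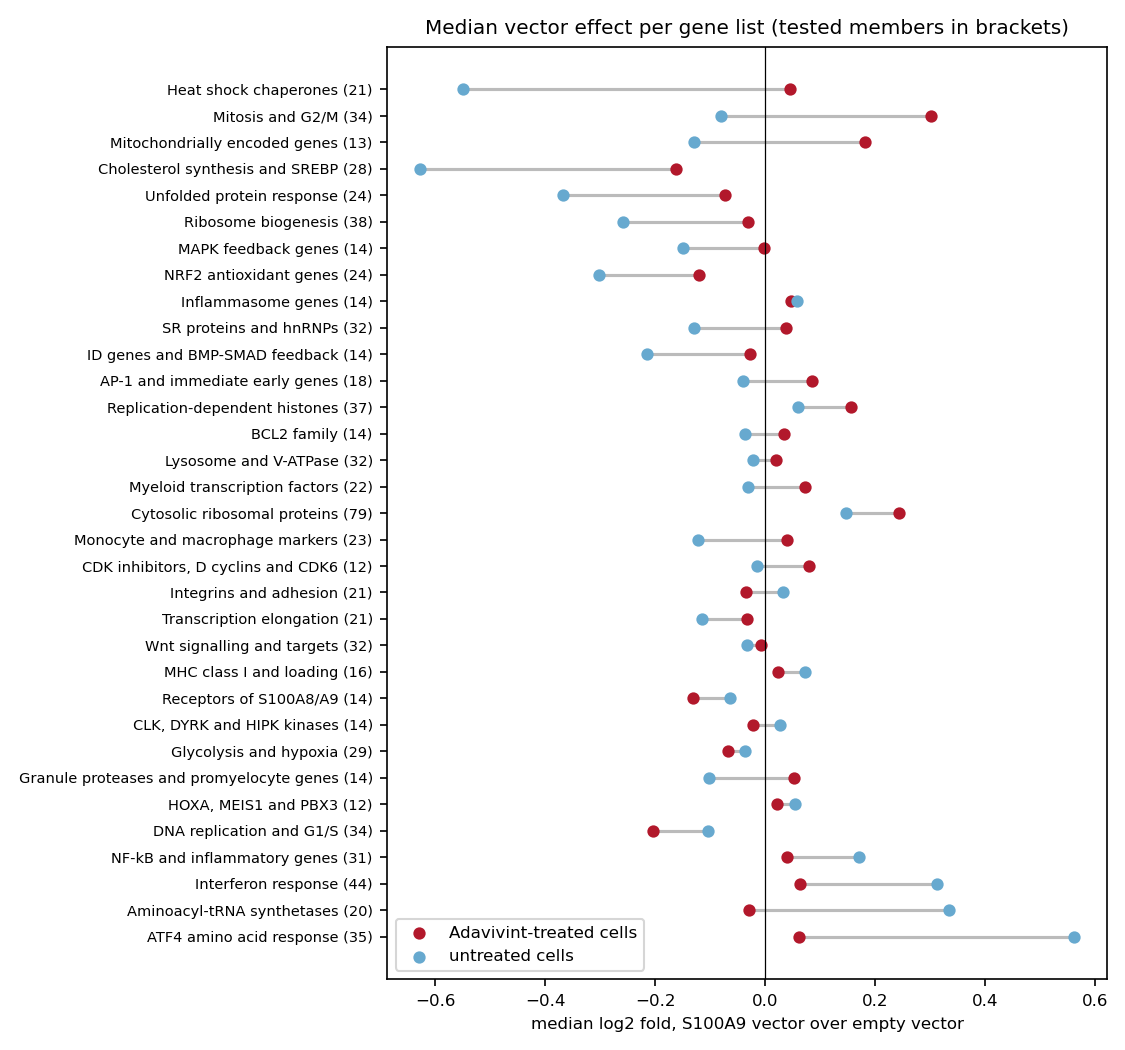
Median log2 fold of the S100A9 vector over the empty vector per gene list with at least 12 tested members (number in brackets), in Adavivint-treated (red) and untreated cells (blue), ordered by the median difference between the drug effects. Treated medians lie between -0.20 and 0.30 and untreated ones between -0.63 and 0.56; the amino acid response, heat shock and cholesterol lists show the widest gaps.

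Many of the largest fitted differences belonged to genes that were nearly silent in untreated cells, where a fitted fold is no bound. MYZAP, RPH3A, C13orf42 and GDA had 0 counts over the 3 untreated overexpressing libraries and 16, 13, 6 and 6 counts over the untreated empty vector libraries. In treated overexpressing cells they had 1679, 613, 698 and 891 counts, against 1540, 669, 574 and 955 in treated empty vector cells. The drug raised all 4 with both vectors, and the difference between vectors rests on the few counts of the untreated libraries. In the 12 fits that each left out 1 library, the calls held in 9 for MYZAP, 12 for RPH3A, 10 for C13orf42 and 1 for GDA. NPC1L1, an intestinal cholesterol transporter, had 12675 counts in treated overexpressing and 30 in untreated overexpressing cells, against 13347 in treated empty vector and 4 in untreated empty vector cells. Its call held in 5 of the 12 fits that each left out 1 library. A count of 0 over the group allows up to 3 counts, or 0.0151 CPM in untreated overexpressing cells, and this covers counting error alone. MYZAP shares its locus with a readthrough gene, and its counts are uncertain for that reason.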

How the data were processed

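Total RNA was sequenced, and the deposited file is a table of raw read counts per gene made by the authors (18670 genes, Ensembl IDs). Reads were aligned with HISAT2 2.0.4, per the submitters' processing notes. The counting tool, genome build, annotation and strand setting were not given in the sources used here. Symbols were matched by Ensembl ID from a separate reference of gene names (18114 genes had one), and gene positions and overlaps were taken from GENCODE 29. Promoter sequences came from RefSeq, GRCh38.p14 (250 bases before to 50 after the start, of which 180 are shown).

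The 12 THP-1 libraries were fitted together with edgeR 4.0.16 (filterByExpr, TMM scaling, quasi-likelihood F test, group means without covariates, 5 contrasts, in R 4.3.3). Of the 18670 genes, 15403 passed the filter. P-values were Benjamini-Hochberg adjusted over these 15403 genes, and every adjusted p in the text is from this test unless another is named. The SE is the absolute log2 value over the square root of F. A call is an adjusted p below 0.05, and SDs are over 3 libraries. Intervals, floors and counts cover counting error alone.

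The contrast, the 41 gene lists and the rules were chosen with earlier results of these data known, so the lists' counts are descriptions. Named genes are the calprotectin genes, the 12 highest and 12 lowest called differences with at least 5 CPM, up to 4 called members of each list by p, the 5 smallest p in each of 4 classes, and 8 genes of the drug's targets and the Wnt pathway, 170 in all, and the text gives a part of them; some are not reported here. TRIB3, SLC7A5, FARSA, HSP90AB1, ATF6, SREBF2 and PLK1 lie outside the rule and were chosen after their values were seen. Alternatives were other scalings, filters and tools (DESeq2 1.42.0, limma 3.58.1), a replicate block and 12 fits that each left out 1 library. The script was tested on simulated data.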

Additional observations from a re-analysis of the deposited data

Results flagged for a closer look

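The drug effects of 2968 genes differed between the vectors by the test of the difference itself, and for 158 of these both drug effects were called in opposite directions. Opposite directions are listed here for 12 such genes among those that the naming rule chose. Adavivint raised 7 of them in overexpressing cells and lowered them in empty vector cells: HSPA8 (log2 difference 1.71), HMGCS1 (1.19) and IDI1 (1.0) of the chaperone and cholesterol lists, SPRY4 (1.6), ID1 (1.53), MT-CYB (1.07) and BORA (0.59), an activator of mitotic kinases. BORA averaged 66.3 ± 2.67 CPM in treated and 49.3 ± 0.566 CPM in untreated overexpressing cells, against 48.0 ± 2.00 CPM in treated and 53.9 ± 3.51 CPM in untreated empty vector cells.

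The drug lowered the other 5 in overexpressing cells and raised them in empty vector cells: RIC3 (-2.32), P2RX7 (-1.38), CDT1 (-0.74), CCND2 (-0.69) and IRAK4 (-0.42). RIC3, a chaperone of acetylcholine receptors, averaged 1.85 ± 0.611 CPM in treated and 5.93 ± 0.413 CPM in untreated overexpressing cells, against 2.88 ± 0.761 CPM in treated and 1.85 ± 0.565 CPM in untreated empty vector cells. Without untreated empty vector replicate 1, which stood apart from its group, the HSPA8 difference was 1.37.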

How the results depend on the processing

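The interaction count of 2968 was 1081 at an adjusted p below 0.01, 303 with an absolute log2 difference of at least 1, and 1885 to 3724 when each library was left out in turn; DESeq2 called 3627, of which 2910 were among the 2968. The vector effect in treated cells (1309) was 2016 with DESeq2 and 502 to 2000 with a library left out, and that in untreated cells (4307) was 2735 to 4983. Among interaction genes, the class called in untreated cells alone (1918) ranged from 1154 to 2548 over these fits. The class called in treated cells alone (435) was 692 with library totals and ranged from 201 to 656. The class with opposite directions (216) was 365 with DESeq2 and ranged from 69 to 319, and that with the same direction (19) was 40 with DESeq2 and ranged from 10 to 29. Positive differences were 1239 of 2968, against 1400 of 2987 with DESeq2 size factors, 961 of 3340 with library totals, 1486 of 3034 with upper quartile factors and 1735 of 3627 with DESeq2. The signs of 4 uncalled genes turned: CLK1 to 0.0306 (leaving out 1 library in turn gave -0.2301 to 0.0306), CLK3 to -0.0443, -0.0353, -0.0053 and -0.0675 (-0.0675 to 0.1065), DYRK1A to -0.0023, and AXIN2 to -0.0116, -0.1228, -0.0611, -0.0499, -0.2417, -0.0206, -0.0749 and -0.1275 (-0.2417 to 0.5498). The causes were not tested. Same-numbered replicates showed no shared deviation from their group means (18 pairs, correlations -0.111 to 0.07). A pairing that left no such shared deviation would not be seen this way, so pairing stays unknown. With a replicate block 2477 genes passed, 2428 of them among the 2968. The vector effect then had 982 calls in treated and 3864 in untreated cells. Treated libraries were the shallower ones, which limits low genes there.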

Other observations

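Genes of ribosome biogenesis had 10 positive and 2 negative differences among 38 (median 0.22; 8.04% and 11.2% of all genes), and the median was 0.11 without untreated empty vector replicate 1. In untreated cells 2 were higher and 21 lower with S100A9 (14.9% and 13.0% of all genes), with 12 and 11 lower without untreated overexpressing replicate 3 or untreated empty vector replicate 1. The 10 became 6 without untreated overexpressing replicate 2 or 3 or treated empty vector replicate 2, and 19 without untreated empty vector replicate 3. NOLC1, a nucleolar protein, averaged 143 ± 5.19 CPM in treated and 332 ± 5.23 CPM in untreated overexpressing cells, against 136 ± 1.72 CPM in treated and 437 ± 44.7 CPM in untreated empty vector cells, with a difference of 0.46 (SE 0.09, adjusted p = 0.0040). Of the cytosolic ribosomal protein genes, 62 of 79 were higher with S100A9 in treated and 39 of 79 in untreated cells (3.69% and 14.9% of all genes). A positive difference was called for 5 of 79, a smaller share than the 8.04% of all genes, with 0 to 7 when each library was left out in turn. The treated 62 became 28 without treated overexpressing replicate 2, and 40 and 25 without treated empty vector replicate 1 or 2. The untreated 39 became 17 without untreated overexpressing replicate 2, and 24 and 21 without untreated empty vector replicate 1 or 2.

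Lysosomal genes had 7 positive and 1 negative difference among 32 (8.04% and 11.2% of all genes), and 4 positive without untreated overexpressing replicate 3. CTSA, a protective lysosomal protease, averaged 99.7 ± 5.22 CPM in treated and 89.0 ± 6.38 CPM in untreated overexpressing cells, against 105 ± 2.64 CPM in treated and 153 ± 18.1 CPM in untreated empty vector cells, with a difference of 0.72 (SE 0.11, adjusted p = 0.0013). LAMP1, a membrane protein of lysosomes, averaged 294 ± 8.90 CPM in treated and 322 ± 7.04 CPM in untreated overexpressing cells, against 298 ± 7.30 CPM in treated and 490 ± 54.7 CPM in untreated empty vector cells, with a difference of 0.59 (SE 0.09, adjusted p = 0.0015). IL18, an inflammasome cytokine, averaged 8.07 ± 0.270 CPM in treated and 49.5 ± 2.70 CPM in untreated overexpressing cells, against 10.1 ± 0.635 CPM in treated and 36.5 ± 3.69 CPM in untreated empty vector cells, with a difference of -0.76 (SE 0.11, adjusted p = 0.0013).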
